A study of Mus musculus with 2 samples.

Results

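The BCL2 family decides at the outer membrane of the mitochondrion whether a cell lives or dies. Guardian proteins of the family (BCL2, BCL-XL, MCL1 and A1) hold the pore-forming effectors BAX and BAK in check, and the BH3-only proteins BIM, PUMA and NOXA (encoded by *Bcl2l11*, *Bbc3* and *Pmaip1*) disarm the guardians when a cell is stressed or starved of survival signals. In T cells IL-7 and IL-2 sustain BCL2 and MCL1, antigen receptor signalling through NF-kB raises A1, and BIM sets the end of many T cell responses. Transcripts of 10 genes of this family were followed among the 32285 genes counted: the guardians *Bcl2*, *Bcl2l1* (BCL-XL), *Mcl1*, *Bcl2a1b* and *Bcl2a1d* (2 copies of A1), the BH3-only genes *Bcl2l11*, *Bbc3* and *Pmaip1*, and the effectors *Bax* and *Bak1*. The genes were taken by name, not by their values.

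Single-cell RNA-seq counts were compared between TCRβ+ cells of a *Foxp3Cre* mouse (WT) and of a *Foxp3Cre* mouse with floxed *Tet2* and *Tet3* on both chromosomes (*Tet2/3* flox/flox, DKO-severe), both 14 weeks old and both carrying the *Foxp3*-driven Cre recombinase, which deletes the floxed genes in Treg cells of the DKO animal and may have been active in some other cells too. TET2 and TET3 are dioxygenases that oxidise 5-methylcytosine, and "severe" marks an animal with advanced enlargement of spleen and lymph nodes. Spleen, cervical nodes and inguinal nodes of each animal were pooled, and the genotypes were told apart by antibody hashtags. The WT matrix held 7189 barcodes with 45294779 UMIs (unique molecular identifiers, each standing for 1 captured transcript) and the DKO-severe matrix 7161 barcodes with 69692053 UMIs; 6583 and 6359 cells were retained, with a median of 5617 and 8066 UMIs, and no barcode occurred in both.

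With 1 mouse of each genotype there were no replicates. No test was possible, and every interval given is an exact 95% interval that covers counting error only, not the variation between mice. The intervals of levels and ratios take UMIs as independent, so they do not cover the variation between cells of 1 mouse either. They are too narrow where a few cells hold many of the UMIs. Levels are UMIs of a gene per 1000000 UMIs (CPM), summed over a group of cells, and differences are log2 ratios of DKO-severe over WT. The 3′ counts do not show whether the floxed exons were deleted: *Tet2* stood at 56.6 CPM (WT) and 71.6 CPM (DKO-severe) in Foxp3-positive cells, and *Tet3* at 89.3 and 85.2 CPM. A summed level cannot tell fewer expressing cells from fewer transcripts in each cell, for which reason the share of cells with a UMI is given as well, with every cell thinned to 3800 UMIs. The gates were set anew on the thinned counts, so a cell that lost its *Cd4*, *Cd8* or CD3 UMIs could change gate or enter the B-like and myeloid-like cells set beside them (cells with markers of those lineages and no CD3 transcript). An alternative chosen after seeing the data gated the cells before thinning. Each of the 50 differences in share then moved by no more than the wider of its 2 half-intervals. Those half-intervals are wide in gates with few WT cells, where a large move or a change of sign could pass. Shares of some members in the smaller gates are given in both ways.

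T cells with a *Cd3d*, *Cd3e* or *Cd3g* UMI were divided into 5 gates that do not overlap. Cd4 Foxp3-negative cells (*Cd4* without *Cd8a*, *Cd8b1* or *Foxp3*) numbered 1675 in WT and 2407 in DKO-severe. Cd4 Foxp3-positive cells, with 1 or more *Foxp3* UMI, numbered 64 and 331. With the gates set on thinned counts they numbered 24 and 88. A cell without a *Foxp3* UMI may still have transcribed the gene, so the Foxp3-negative gate can hold Treg cells. Cd8 effector cells, with 2 or more UMIs over *Gzma*, *Gzmb* and *Gzmk*, numbered 30 and 435, and the other Cd8 cells 3022 and 1300. Innate-like cells had *Zbtb16*, which encodes the NKT cell factor PLZF, and no *Cd4*, *Cd8a*, *Cd8b1* or *Foxp3*, and numbered 68 and 109; *Cd4*-bearing NKT cells stayed in the Cd4 gates. The summed level of 6 Treg markers was 3893 CPM (WT) and 3705 CPM (DKO-severe) in the Foxp3-positive gate and at most 1667 CPM in any other. Of this sum *Ikzf2* alone gave 2235 and 2623 CPM in the Foxp3-positive gate. *Foxp3* (200 and 120 CPM), *Il2ra* (490 and 163 CPM) and *Nrp1* (272 and 129 CPM) were lower in DKO-severe there. *Ctla4* (442 and 435 CPM) and *Il2rb* (253 and 235 CPM) differed little. The summed level of 6 cytotoxic markers was 12966 and 26805 CPM in the effector gate and at most 3072 CPM elsewhere. *Ccl5* alone gave 10158.5 and 19940.1 CPM of the sum in the effector gate. *Gzma* (759 and 3786 CPM) and *Gzmb* (231 and 769 CPM), which help to set this gate, were higher in DKO-severe there. The effector ratios thus compare cells that differ in granzyme level. The 6 NKT markers summed to 1720 and 1860 CPM in the innate-like gate, above both Cd4 gates and other Cd8 cells, but to 2327 and 2897 CPM in the effector gate, so that they do not single out the innate-like cells. In the innate-like gate *Zbtb16* (568 and 355 CPM) and *Klrd1* (146 and 89.1 CPM) were lower in DKO-severe. *Il2rb* (232 and 549 CPM) and *Nkg7* (439 and 542 CPM) were higher, and *Klrb1c* (173 and 177 CPM) and *Cd160* (161 and 149 CPM) differed little. *Gzmb*, of the cytotoxic list, was at 7.32 CPM (3 UMIs) and 368 CPM there, so the innate-like cells of the 2 mice were not alike. These lists include the genes that set the gates. The Foxp3-positive and effector gates rest on few WT cells, and their values carry wide intervals accordingly.

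The gates of the 2 mice differed in transcripts of other cells. The summed level of 6 granulocyte markers was 74.0 to 85.2 CPM in the WT gates, and in DKO-severe it was 89.9 CPM in effector cells, 1717 CPM in other Cd8, 2832 CPM in Foxp3-negative, 3818 CPM in Foxp3-positive and 6307 CPM in innate-like cells. Those of 6 monocyte or macrophage markers were 77.1 CPM (WT) and 517 CPM (DKO-severe) in Foxp3-negative, 34.9 and 692 CPM in Foxp3-positive, 55.5 and 235 CPM in effector, 80.3 and 104 CPM in other Cd8, and 559 and 435 CPM in innate-like cells. The 4 erythroid markers stood at 9.25 and 1029 CPM in effector cells. In the 86 DKO-severe cells with myeloid markers and no CD3 transcript, *Bcl2* stood at 30.7 CPM, *Bcl2a1b* at 39.1 CPM and *Bcl2a1d* at 14.9 CPM, each below its level in all 5 DKO-severe gates. In the 7 such WT cells *Bcl2a1b* stood at 277 CPM, from 15 UMIs.

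*Bcl2a1b* and *Bcl2a1d* lie in a cluster of recent copies of the A1 gene on chromosome 9 (GRCm38; *Bcl2a1b* at chr9:89199209-89207827, plus strand, and *Bcl2a1d* at chr9:88723285-88731914, minus strand). Their upstream sequences are shown because these 2 members were both higher in DKO-severe Cd4 cells and are close copies of each other, which limits how well their reads can be told apart. The stretches run 5′ to 3′ on the strand of the gene and end at the base before the first annotated transcript base (RefSeq promoter windows, GRCm38.p6; chr9:89199023-89199208 for *Bcl2a1b* and chr9:88731915-88732100 for *Bcl2a1d*). Capitals mark bases that differ or have no partner within the aligned part.
Bcl2a1b: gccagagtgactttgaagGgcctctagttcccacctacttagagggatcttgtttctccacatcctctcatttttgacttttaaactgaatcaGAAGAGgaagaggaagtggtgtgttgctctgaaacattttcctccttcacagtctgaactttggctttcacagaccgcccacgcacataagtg
Bcl2a1d: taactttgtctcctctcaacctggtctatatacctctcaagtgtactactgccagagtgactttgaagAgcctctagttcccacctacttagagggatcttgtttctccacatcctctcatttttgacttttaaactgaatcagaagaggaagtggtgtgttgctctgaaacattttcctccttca
Of 136 paired bases 135 were identical (99.3%), and *Bcl2a1b* held 6 bases that *Bcl2a1d* lacks. The motif search used 250-base RefSeq windows, which begin with the 186-base stretches shown and run on past the first base of the GENCODE gene. Both windows hold GGAAGT, a core of ETS family sites, which 19.7% of 32851 RefSeq promoter windows of that length hold on either strand. Neither holds the NF-kB consensus, found in 5.93% of them. In the last 400 bases of the GENCODE transcripts, 34.1% of the 90-base windows of *Bcl2a1b* and 60.8% of those of *Bcl2a1d* occur unchanged in another *Bcl2a1* gene. A read from such a window cannot be given to 1 copy, so the split between the 2 genes is uncertain, and their sum is given beside them.

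**Figure D1:**
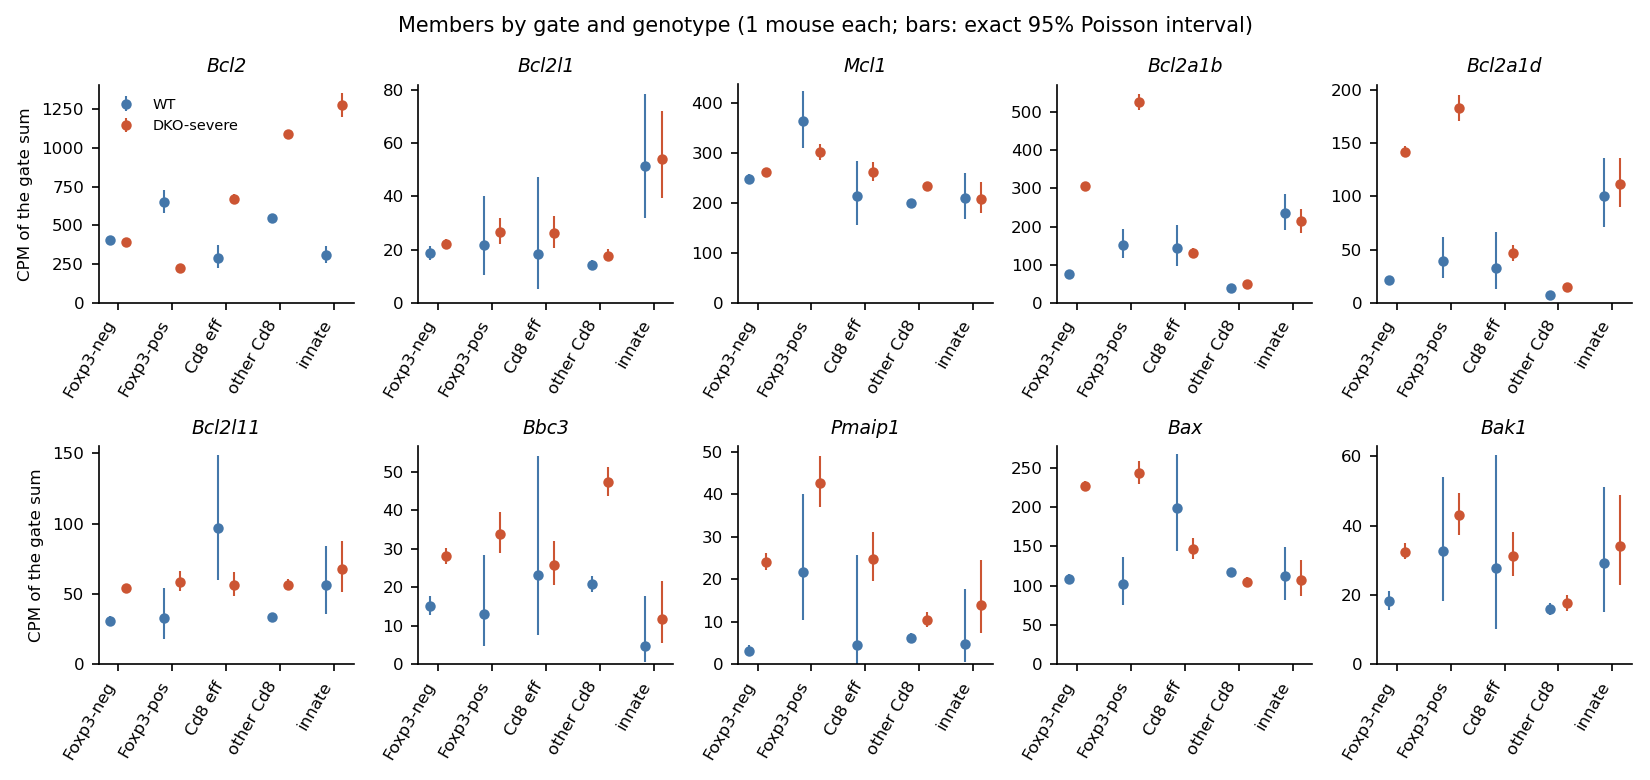
CPM of each member (vertical axis, linear, from 0) in the 5 gates (horizontal axis) in WT (blue) and DKO-severe (red); points are values of the summed counts of 1 mouse and bars exact 95% Poisson intervals. *Bcl2* is at 225 CPM in DKO-severe Foxp3-positive cells and 1275 CPM in DKO-severe innate-like cells, and the A1 genes are highest in DKO-severe Cd4 cells.

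The order of the gates by *Bcl2* differed between the 2 mice. In WT the order of its level was Foxp3-positive (651 CPM, 579.6 to 729.5), other Cd8 (546 CPM, 536 to 556), Foxp3-negative (404 CPM, 392 to 417), innate-like (307 CPM, 256 to 366) and effector (291 CPM, 224 to 373), of which only the last 2 neighbours had overlapping intervals. In DKO-severe the order was innate-like (1275 CPM), other Cd8 (1092 CPM), effector (672 CPM), Foxp3-negative (394 CPM) and Foxp3-positive (225 CPM, 211 to 239), with no overlap between neighbours. The Foxp3-positive gate thus stood last in DKO-severe. Its separation from other Cd8 cells in WT rested on 1 cell. Without that cell its level was 556 CPM (489 to 630), still the highest, but with an interval that holds the level of other Cd8 cells.

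Outside the Cd4 gates *Bcl2* was higher in DKO-severe. In effector cells the level was 291 CPM in WT, from 63 UMIs, and 672 CPM (644 to 702) in DKO-severe. The log2 ratio was 2.05 (1.79 to 2.33) in innate-like cells, 1.21 (0.84 to 1.59) in effector cells and 1.00 (0.97 to 1.04) in other Cd8 cells. In other Cd8 cells 99.0% of the 5800 genes at 20 CPM or more had a lower ratio, and in innate-like cells 99.2% of 6393 genes. At equal depth 79.4% (70.0 to 86.9) of 97 DKO-severe innate-like cells had a *Bcl2* UMI, against 50.7% (38.4 to 63.0) of 69 WT cells, and the shares were 82.0% and 66.1% in other Cd8 cells. In effector cells they were 61.4% (55.6 to 66.9) of 303 and 29.4% (10.3 to 56.0) of 17, with intervals that just overlap. For reference, 8.77% of 114 DKO-severe myeloid-like cells had a *Bcl2* UMI, as did 33.5% of 197 DKO-severe B-like cells, a lineage that transcribes the gene itself. With cells gated before thinning, the shares were 86.1% (78.1 to 92.0) of 108 and 50.0% (37.0 to 63.0) of 62 innate-like cells, and 64.2% (59.0 to 69.2) of 358 and 51.9% (31.9 to 71.3) of 27 effector cells. Those of the reference cells were then 9.59% of 73 and 30.3% of 165.

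In Foxp3-positive cells *Bcl2* was lower in DKO-severe, at 225 CPM against 651 CPM, a log2 ratio of -1.53 (-1.72 to -1.34), with 2.20% of 6488 genes lower. A WT cell with 52 of the 299 WT *Bcl2* UMIs carried 17.4% of them, and without it the ratio was -1.31 (-1.51 to -1.10). The DKO-severe cells of the gate were deep, with a median of 11545 UMIs against 5382 in WT. Thinned to equal depth in the same cells, the ratio was -1.18 (-1.47 to -0.89), and with the gate itself set on thinned counts, which left 24 WT and 88 DKO-severe cells, it was -0.62 (-1.11 to -0.12). The share of those cells with a *Bcl2* UMI was 58.3% (36.6 to 77.9) in WT and 47.7% (37.0 to 58.6) in DKO-severe, with intervals that overlap. With cells gated before thinning the shares were 61.8% (47.7 to 74.6) of 55 and 38.9% (33.5 to 44.4) of 324, with intervals that do not. After the values had been seen, the gate was divided by *Pdcd1* or *Il21*, genes of Tfh and activated cells: 12.5% of the WT and 60.1% of the DKO-severe cells had a UMI of either. This and the later divisions by a UMI used unthinned counts, and the DKO-severe cells were deeper. The shares and the makeup of both parts therefore depend on depth too, and the divisions were not tested at equal depth. In cells without, *Bcl2* was at 736 CPM (WT) and 336 CPM (DKO-severe; -1.13, -1.35 to -0.91), and in cells with, at 281 and 180 CPM (-0.65, -1.23 to 0.01, from 8 WT cells).

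**Figure D2:**
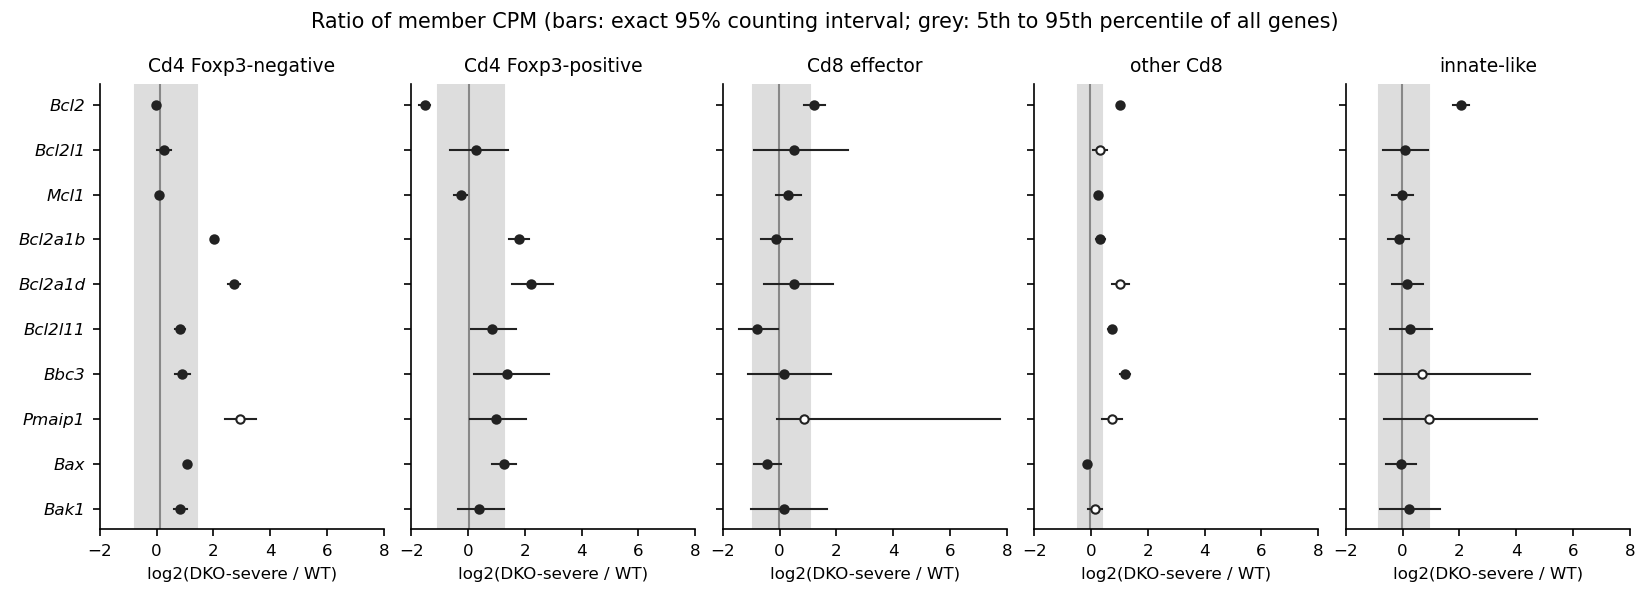
log2 ratio of DKO-severe over WT CPM (horizontal axis) for each member (vertical axis) in 5 gates; points are ratios of summed counts, bars exact 95% counting intervals, open points members under 20 CPM on average over both mice, counts under 3 UMIs taken as 3, grey bands the 5th to 95th percentile and grey lines the median of all genes tested. *Bcl2* lies at -1.53 in Foxp3-positive and 2.05 in innate-like cells, and the A1 genes lie right of the band in both Cd4 gates.

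In Foxp3-negative cells *Bcl2* stood at 404 CPM (WT) and 394 CPM (DKO-severe; -0.04, -0.09 to 0.02), but the gate held different cells in the 2 mice. Divided in the same way after the values had been seen, cells with a *Pdcd1* or *Il21* UMI made up 6.81% of the gate in WT and 56.2% in DKO-severe. These shares are of unthinned counts, with a median of 5261 UMIs in the WT and 7965 in the DKO-severe cells of the gate. Within the *Pdcd1* or *Il21* cells *Bcl2* was at 386 and 272 CPM (-0.50, -0.67 to -0.33), and within the cells without at 406 and 609 CPM (0.58, 0.52 to 0.65). Divided in this way, the near-equal level of the whole gate joined a lower and a higher part. Inside the DKO-severe mouse alone, *Pdcd1* or *Il21* cells held less *Bcl2* than the other cells of the gate (-1.16, -1.22 to -1.10), whereas inside the WT mouse the interval included 0 (-0.07, -0.24 to 0.09). In the other Cd8 gate, divided likewise, the cells without *Pdcd1* or *Il21*, 97.1% of it in WT and 94.5% in DKO-severe, had a *Bcl2* ratio of 1.01 (0.98 to 1.05), and the few cells with had 0.91 (0.71 to 1.11).

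**Figure D3:**
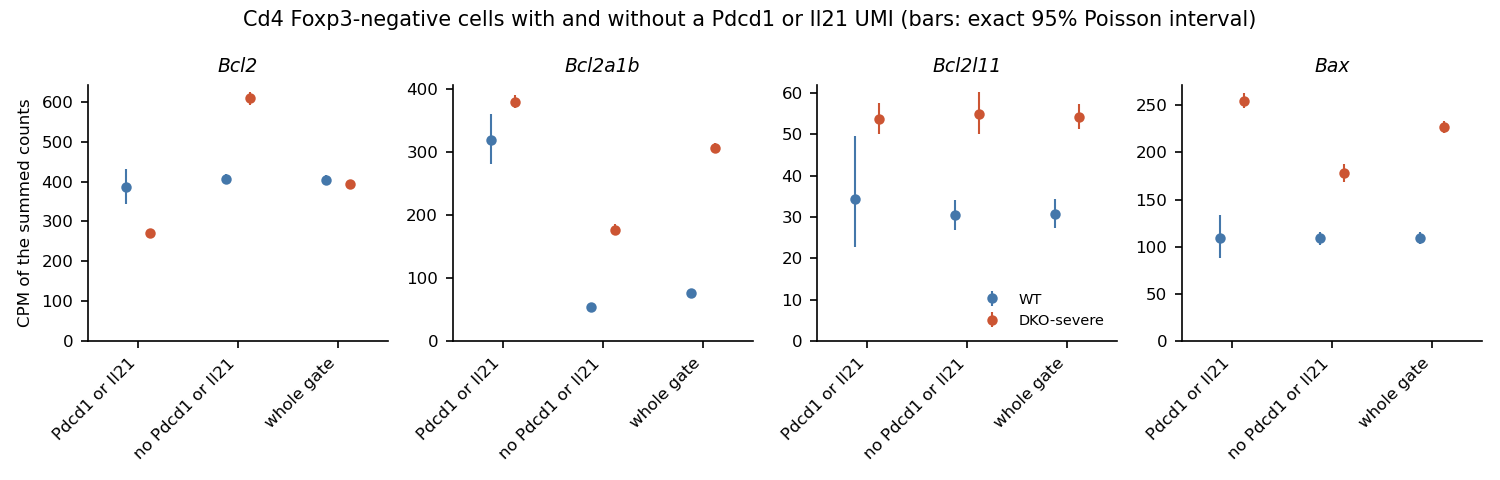
CPM (vertical axis, linear, from 0) of *Bcl2*, *Bcl2a1b*, *Bcl2l11* and *Bax* in Cd4 Foxp3-negative cells with a *Pdcd1* or *Il21* UMI, without one, and in the whole gate (horizontal axis), in WT (blue) and DKO-severe (red), with exact 95% Poisson intervals. *Bcl2* is lower in DKO-severe in *Pdcd1* or *Il21* cells (272 against 386 CPM) and higher in the cells without (609 against 406 CPM), while the whole gate differs little.

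The innate-like gate was also divided after its values had been seen, by *Il2rb*, the β chain of the IL-2 and IL-15 receptors: 40 of 68 WT and 99 of 109 DKO-severe cells had a UMI of it, and its level was 232 and 549 CPM. In *Il2rb* cells *Bcl2* stood at 347 CPM (WT) and 1363 CPM (DKO-severe; 1.97, 1.65 to 2.31). In the 28 WT and 10 DKO-severe cells without, it stood at 251 and 491 CPM (0.97, 0.32 to 1.61). The other 9 members had intervals that included 0 in this gate as a whole, with *Mcl1* at 209.8 and 209 CPM and *Bax* at 112 and 108 CPM.

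*Mcl1*, whose short-lived product T cells need throughout life, was the most even member. Its level lay between 199 and 364 CPM in all 10 groups. The ratio was 0.08 (0.01 to 0.15) in Foxp3-negative, -0.27 (-0.50 to -0.03) in Foxp3-positive, 0.30 (-0.13 to 0.76) in effector, 0.23 (0.16 to 0.30) in other Cd8 and -0.01 (-0.39 to 0.38) in innate-like cells; that of Foxp3-negative cells turned to -0.02 when ratios were centred on the median of all genes. *Bcl2l1* was scarce in the Cd4 and Cd8 gates, at 14.4 to 26.7 CPM. It was highest in innate-like cells, at 51.2 CPM (31.7 to 78.3) in WT and 53.9 CPM (39.5 to 71.9) in DKO-severe. Its interval lay above 0 in other Cd8 cells only (0.30, 0.05 to 0.56). Within the *Pdcd1* or *Il21* cells of the Foxp3-negative gate it was lower in DKO-severe, at 39.2 and 24.1 CPM (-0.70, -1.22 to -0.13). At equal depth its shares in Foxp3-negative cells (5.34% and 6.26%) lay near those of DKO-severe B-like (4.06%) and myeloid-like cells (5.26%), whereas in innate-like cells they were 15.9% (8.24 to 26.7) and 19.6% (12.2 to 28.9). Of the cells gated before thinning, 3.64% (0.443 to 12.5) of 55 WT Foxp3-positive and 3.70% (0.0937 to 19.0) of 27 WT effector cells had a *Bcl2l1* UMI at that depth.

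The A1 genes were higher in DKO-severe in both Cd4 gates. In Foxp3-negative cells *Bcl2a1b* was at 75.3 CPM (WT, 69.9 to 80.9) and 306 CPM (DKO-severe, 299 to 313), a ratio of 2.02 (1.91 to 2.13), and *Bcl2a1d* at 21.6 and 142 CPM (2.72, 2.52 to 2.93). In Foxp3-positive cells *Bcl2a1b* was at 152 and 525 CPM (1.78, 1.44 to 2.15) and *Bcl2a1d* at 39.2 and 183 CPM (2.22, 1.55 to 2.98); 1 WT cell held 25 of the 70 WT *Bcl2a1b* UMIs there. The *Bcl2a1b* ratio of that gate ranged from 1.12 (stricter gates) to 2.46 (the top 12% of doublet scores removed) over the alternatives, and that of *Bcl2a1d* was 1.24 after thinning. Because the split of reads between the near-identical copies is uncertain, the sum of both is given as well. Reads shared between copies may be missing from it. The ratio of the sum was 2.21 (2.11 to 2.31) in Foxp3-negative and 1.89 (1.58 to 2.21) in Foxp3-positive cells. It was 0.47 (0.33 to 0.60) in other Cd8, 0.01 (-0.46 to 0.53) in effector and -0.04 (-0.34 to 0.26) in innate-like cells. In WT effector cells 1 cell held 11 of the 31 *Bcl2a1b* UMIs, and the ratio of that gate went from -0.13 to 1.48 without cells holding *Mki67* or *Top2a*, genes of dividing cells. In Foxp3-negative cells *Bcl2a1d* made up 22.3% (WT) and 31.7% (DKO-severe) of that sum. *Bcl2a1a*, a further copy, had 8 and 273 UMIs there.

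At equal depth the shares of cells with an A1 UMI were also higher in DKO-severe Foxp3-negative cells, but across gates they did not follow the order of the levels. Among Foxp3-negative cells *Bcl2a1b* had a UMI in 15.7% (WT, 13.7 to 17.9) and 49.7% (DKO-severe, 47.4 to 52.0), beside 4.39% (1.44 to 9.94) of DKO-severe myeloid-like and 21.3% (15.8 to 27.7) of DKO-severe B-like cells. The WT share thus did not stand above that of B-like cells, and the DKO-severe share stood above both. For *Bcl2a1d* the shares were 5.75% and 32.6%, beside 7.61% of B-like and 4.39% of myeloid-like cells. In innate-like cells the *Bcl2a1d* shares were 31.9% and 30.9%, already high in WT. Those of *Bcl2a1b* were 46.4% (34.3 to 58.8) in WT and 56.7% (46.3 to 66.7) in DKO-severe innate-like cells. The latter was not below the DKO-severe Foxp3-negative share, although its level was lower (213 against 306 CPM). In effector cells the *Bcl2a1b* shares were 23.5% (6.81 to 49.9) of 17 WT and 36.3% (30.9 to 42.0) of 303 DKO-severe cells. Of 24 WT and 88 DKO-severe Foxp3-positive cells, 37.5% (18.8 to 59.4) and 64.8% (53.9 to 74.7) had a *Bcl2a1b* UMI. For *Bcl2a1d* these shares were 20.8% (7.13 to 42.2) and 36.4% (26.4 to 47.3), and both pairs of intervals overlap. With cells gated before thinning they were 27.3% (16.1 to 41.0) of 55 and 67.9% (62.5 to 73.0) of 324 for *Bcl2a1b*. For *Bcl2a1d* they were then 10.9% (4.11 to 22.2) and 40.1% (34.7 to 45.7), and neither pair overlaps. Without the cells that held 2 or more UMIs of other-cell markers, the Foxp3-negative ratios were 1.84 for *Bcl2a1b* and 2.58 for *Bcl2a1d*.

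*Bcl2a1b* differed within the Foxp3-negative gate of the WT mouse already, at 318 CPM in *Pdcd1* or *Il21* cells against 53.1 CPM in cells without (2.58, 2.36 to 2.81). The genotype ratio was 0.25 (0.07 to 0.44) in *Pdcd1* or *Il21* cells and 1.73 (1.58 to 1.88) in cells without, each smaller than the 2.02 of the whole gate. For *Bcl2a1d* the ratios were 1.03 (0.69 to 1.38) and 2.21 (1.94 to 2.49). In the other Cd8 gate the cells without *Pdcd1* or *Il21* had 35.9 and 36.3 CPM of *Bcl2a1b* (0.02, -0.16 to 0.19), whereas those with had 129 and 268 CPM (1.06, 0.70 to 1.41).

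**Figure D4:**
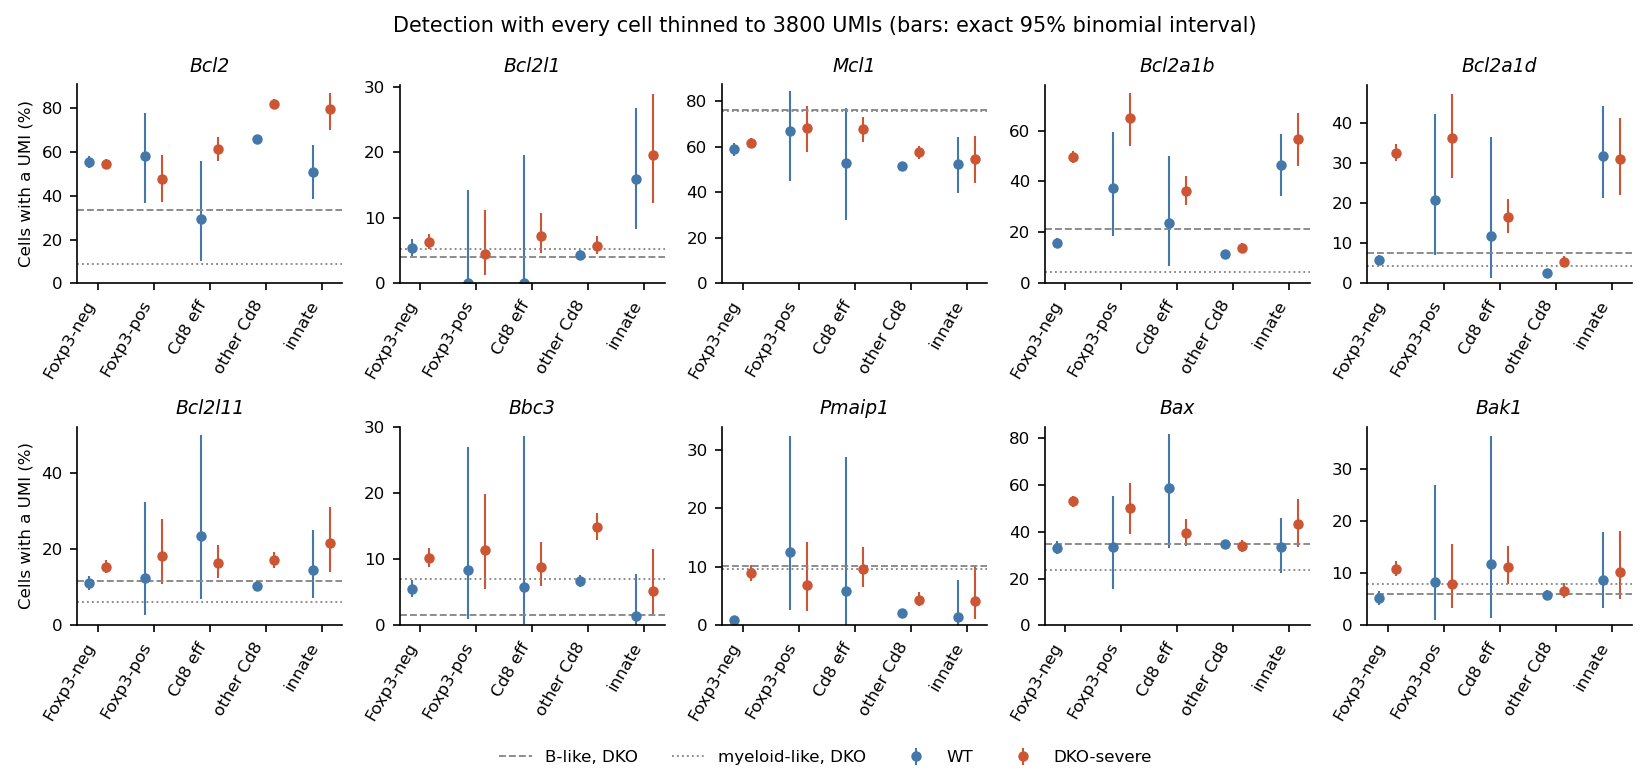
Share of cells with 1 or more UMI of each member (vertical axis, percent, from 0) in 5 gates (horizontal axis) with every cell thinned to 3800 UMIs; points are WT (blue) and DKO-severe (red), bars exact 95% binomial intervals, and grey lines the share in DKO-severe B-like (dashed) and myeloid-like (dotted) cells. *Bcl2a1b* is detected in 49.7% of DKO-severe and 15.7% of WT Foxp3-negative cells, and *Bcl2* in 79.4% and 50.7% of innate-like cells.

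Of the BH3-only genes, *Bcl2l11* (BIM) lay between 54.1 and 68.0 CPM in the 5 DKO-severe gates and between 30.7 and 97.1 CPM in the WT gates. In Foxp3-negative cells it was at 30.7 CPM (WT) and 54.1 CPM (DKO-severe; 0.82, 0.64 to 1.01), at 32.7 and 58.7 CPM in Foxp3-positive cells (0.84, 0.10 to 1.70) and at 33.8 and 56.6 CPM in other Cd8 cells (0.74, 0.59 to 0.89). In effector cells it was lower in DKO-severe, at 97.1 CPM (60.1 to 148.5, from 21 UMIs) against 56.4 CPM (48.4 to 65.4), a ratio of -0.78 (-1.44 to -0.06). It stayed below 0 in every alternative but was under 1.5-fold without doublet removal (-0.57), with equal weight per cell (-0.43), after thinning (-0.41) and with stricter gates (-0.31). WT effector cells exceeded WT other Cd8 cells (1.52, 0.82 to 2.15), and DKO-severe effector cells did not (-0.01, -0.25 to 0.23). In innate-like cells the ratio was 0.28 (-0.44 to 1.04). The Foxp3-negative ratio was 0.65 (0.10 to 1.25) in *Pdcd1* or *Il21* cells and 0.86 (0.64 to 1.08) in cells without. At equal depth 10.4% (9.35 to 11.6) of WT and 17.1% (15.1 to 19.3) of DKO-severe other Cd8 cells had a UMI, beside 11.7% (7.55 to 17.0) of DKO-severe B-like and 6.14% (2.50 to 12.2) of DKO-severe myeloid-like cells.

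*Bbc3* (PUMA), a target of p53 and FOXO factors, was higher in DKO-severe in Foxp3-negative and other Cd8 cells, and in Foxp3-positive cells before thinning. The ratio was 1.19 (1.01 to 1.36) in other Cd8 cells, from 20.8 to 47.3 CPM, with 99.3% of the genes tested lower, and 1.20 (1.01 to 1.38) in the cells of that gate without *Pdcd1* or *Il21*. It was 0.90 (0.64 to 1.17) in Foxp3-negative and 1.37 (0.22 to 2.84) in Foxp3-positive cells, the last from 6 WT UMIs and at 0.00 once gates and counts were thinned to equal depth. Among Foxp3-negative cells it was 2.31 (1.08 to 3.94, from 5 WT UMIs) in *Pdcd1* or *Il21* cells and 0.60 (0.28 to 0.92) in cells without. At equal depth 6.65% (5.77 to 7.62) of WT and 14.9% (13.0 to 17.0) of DKO-severe other Cd8 cells had a UMI, against 1.52% of DKO-severe B-like and 7.02% (3.08 to 13.4) of DKO-severe myeloid-like cells, so that the WT share did not stand above the latter. Within DKO-severe, *Bbc3* was lower in effector than in other Cd8 cells (-0.87, -1.22 to -0.54).

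*Pmaip1* (NOXA), which binds MCL1 and A1, was at 3.17 CPM (WT, from 31 UMIs) and 24.1 CPM (DKO-severe, 22.1 to 26.2) in Foxp3-negative cells, a ratio of 2.93 (2.40 to 3.50). The ratio was 1.48 (0.49 to 2.70) in *Pdcd1* or *Il21* cells and 2.83 (2.20 to 3.53) in the other cells of the gate. At equal depth 0.891% of WT and 8.87% (7.61 to 10.3) of DKO-severe cells had a UMI, but so did 9.65% (4.92 to 16.6) of DKO-severe myeloid-like and 10.2% (6.31 to 15.2) of DKO-severe B-like cells. The DKO-severe share of the gate thus did not stand above that of other lineages of the same mouse, and the part of free RNA in it was not tested. Without cells that held other-cell markers the ratio was 3.15, and with a pseudocount of 5 CPM, which is above the WT level, it was 1.83. In Foxp3-positive cells *Pmaip1* was at 21.8 and 42.6 CPM (0.97, 0.06 to 2.05; -0.29 after thinning) and in other Cd8 cells at 6.26 and 10.5 CPM (0.74, 0.39 to 1.10). WT effector cells held 1 UMI and WT innate-like cells 2, and no ratio is given there.

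Of the effectors, *Bax* was higher in DKO-severe in the Cd4 gates and not elsewhere. In Foxp3-negative cells it stood at 109 CPM (WT, 102 to 116) and 227 CPM (DKO-severe, 221 to 233), a ratio of 1.06 (0.97 to 1.16), and at 102 and 243 CPM in Foxp3-positive cells (1.25, 0.83 to 1.70). In other Cd8 cells it was at 118 and 105 CPM (-0.16, -0.26 to -0.06) and in effector cells at 199 and 147 CPM (-0.43, -0.89 to 0.05). The Foxp3-negative ratio was 1.23 (0.92 to 1.55) in *Pdcd1* or *Il21* cells and 0.71 (0.59 to 0.83) in cells without, and 1.03 in the whole gate without cells holding *Mki67* or *Top2a*. At equal depth 33.1% (WT) and 53.0% (DKO-severe) of Foxp3-negative cells had a *Bax* UMI, against 34.5% of DKO-severe B-like and 23.7% of DKO-severe myeloid-like cells. *Bak1* was at 18.2 and 32.5 CPM in Foxp3-negative cells (0.84, 0.60 to 1.08), and its interval included 0 in the other 4 gates. Its equal-depth shares there were 5.18% (4.01 to 6.57) and 10.8% (9.40 to 12.3), beside 6.09% (3.19 to 10.4) of DKO-severe B-like and 7.89% (3.67 to 14.5) of DKO-severe myeloid-like cells.

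Counted over the members with a mean of 20 CPM or more, 6 of 9 were 1.5-fold or more higher in DKO-severe Foxp3-negative cells, where 15.9% of 6301 genes were, and 0 of 9 were lower by as much, where 7.13% were. In Foxp3-positive cells 6 of 10 were higher (19.0% of 6488 genes) and 1 lower, *Bcl2* (14.4%); after thinning to equal depth, which left 24 WT cells, 4 were higher and the median ratio of the members was 0.00. In other Cd8 cells 3 of 6 were higher (2.45% of 5800 genes), namely *Bcl2*, *Bcl2l11* and *Bbc3*, and 0 lower (2.55%). In effector cells 1 of 9 was higher, *Bcl2* (14.4% of 6188 genes), and 1 lower, *Bcl2l11* (12.6%), a call lost in the 4 alternatives given above. In innate-like cells 1 of 8 was higher, *Bcl2* (11.5% of 6393 genes), and 0 lower (11.2%). The median ratio of these members was 0.84, 0.91, 0.54, 0.17 and 0.11 in that order of gates, beside 0.10, 0.04, -0.05, -0.01 and -0.03 for all genes. The counts and medians of the Cd4 gates take *Bcl2a1b* and *Bcl2a1d*, close copies whose reads are hard to tell apart, as 2 members. Both were among the 6 higher members in each Cd4 gate.

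Ratios of 2 members in the same cells do not depend on the library total. They are ratios of UMIs, not of proteins. There were 13.2 (11.7 to 14.9) *Bcl2* UMIs for each *Bcl2l11* UMI in WT and 7.28 (6.86 to 7.73) in DKO-severe Foxp3-negative cells. In Foxp3-positive cells the values were 19.9 (11.9 to 36.1) and 3.83 (3.35 to 4.39). The order was opposite in effector cells, at 3.00 (1.81 to 5.18) and 11.9 (10.2 to 14.0), and in innate-like cells, at 5.48 (3.49 to 8.96) and 18.8 (14.4 to 24.9). In other Cd8 cells both members were higher and the ratio moved little, from 16.1 (14.9 to 17.4) to 19.3 (17.9 to 20.8).

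The sum of both A1 genes per *Bcl2* UMI went the other way. It was 0.239 in WT and 1.14 in DKO-severe Foxp3-negative cells, and 0.294 and 3.15 in Foxp3-positive cells. Counted UMIs of A1 thus outnumbered those of *Bcl2* in the DKO-severe Cd4 gates alone among the DKO-severe gates. In innate-like cells the value was 1.09 (0.847 to 1.40) in WT and 0.255 (0.222 to 0.291) in DKO-severe, and in effector cells 0.603 and 0.264. *Mcl1* per *Pmaip1* UMI was 77.9 (54.8 to 115) in WT and 10.8 (9.94 to 11.8) in DKO-severe Foxp3-negative cells.

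**Figure D5:**
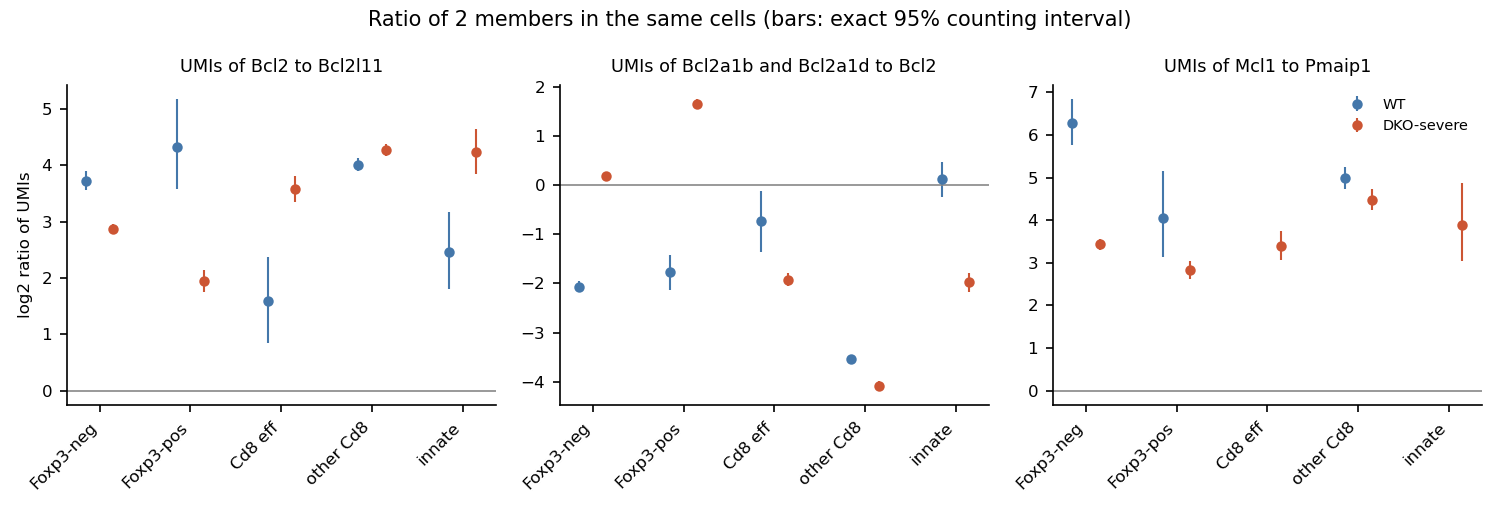
log2 ratio of the UMIs of *Bcl2* to *Bcl2l11*, of both A1 genes to *Bcl2* and of *Mcl1* to *Pmaip1* (vertical axes) in the same cells, in 5 gates (horizontal axis), WT (blue) and DKO-severe (red), with exact 95% counting intervals; groups with fewer than 3 UMIs of a gene are left out. The first ratio is lower in DKO-severe in both Cd4 gates (7.28 against 13.2 UMIs in Foxp3-negative cells) and higher in effector and innate-like cells.

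Between gates of 1 mouse, effector cells held less *Bcl2* and more A1 than other Cd8 cells in both genotypes. The *Bcl2* ratio of effector over other Cd8 was -0.90 (-1.29 to -0.55) in WT and -0.70 (-0.77 to -0.63) in DKO-severe, and that of *Bcl2a1b* 1.87 (1.30 to 2.38) and 1.41 (1.22 to 1.59). The ratio of Foxp3-positive over Foxp3-negative cells changed sign for *Bcl2*, from 0.69 (0.51 to 0.86) in WT to -0.81 (-0.90 to -0.72) in DKO-severe, and kept it for *Mcl1* (0.56 and 0.21), *Bcl2a1b* (1.02 and 0.78) and *Pmaip1* (2.78 and 0.82). Innate-like over Foxp3-negative cells gave -0.40 (-0.66 to -0.14) in WT and 1.69 (1.60 to 1.79) in DKO-severe for *Bcl2*. For *Bcl2l1* the same comparison gave 1.46 and 1.29.

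Other genes of the death pathway were taken from fixed lists. Of the apoptosome, caspase and inhibitor genes, *Birc5* (survivin, also a mitotic gene) was at 13.9 CPM (WT) and 69.8 CPM (DKO-severe; 2.33, 2.07 to 2.59) in Foxp3-negative cells. In effector cells it was lower, at 102 and 42.4 CPM (-1.26, -1.92 to -0.54). The ratios of *Casp2* (32.4 and 16.3 CPM; -0.99, -2.14 to 0.39) and *Casp8* (-0.51, -1.02 to 0.03) there had intervals that included 0.

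Of 16 survival signals and regulators, 14 reached 20 CPM in Foxp3-negative cells, with 4 higher and 4 lower (15.9% and 7.13% of all genes tested). *Il2rb* was at 54.5 CPM (WT) and 176 CPM (DKO-severe; 1.69, 1.56 to 1.83), *Foxo1*, which drives *Bcl2l11* and *Il7r*, at 344 and 149 CPM (-1.21, -1.28 to -1.14) and the kinase gene *Pim2* at 31.6 and 61.2 CPM (0.95, 0.78 to 1.14). In effector cells (14.4% of genes higher and 12.6% lower) 13 reached the level, with 1 higher, *Pim1* (0.79, 0.21 to 1.45), and 1 lower, *Pim2* (-0.89, -1.46 to -0.26); the ratio of *Akt1* was 0.57 (-0.60 to 2.04).

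Of 9 genes of death receptors, their ligands and adaptors, 5 reached it in Foxp3-negative cells. Of these 1 was higher (15.9% of all genes tested) and 0 lower (7.13%). The higher one was the ligand gene *Tnfsf10* (TRAIL), at 21.9 and 52.4 CPM (1.26, 1.05 to 1.48). *Cflar*, the inhibitor of caspase 8, and the receptor gene *Fas* each had a ratio of -0.43. In effector cells 6 reached it, with 3 higher (14.4% of all genes tested) and 1 lower (12.6%). *Fasl* was at 27.8 and 91.1 CPM (1.72, 0.58 to 3.17, from 6 WT UMIs) and *Ripk1* at 18.5 and 62.5 CPM (1.76, 0.38 to 3.65, from 4 WT UMIs). The other higher gene, *Tnfsf10*, rested on 6 WT UMIs, with an interval that included 0 (0.95, -0.20 to 2.41). *Tradd* was at 78.6 and 28.0 CPM (-1.49, -2.25 to -0.64). Of 16 further BCL2 family genes only 3 reached it in Foxp3-negative cells, *Bad* (0.82, 0.56 to 1.08), *Bcl2l13* (0.21, an interval that included 0) and *Bnip3l* (-0.02, -0.12 to 0.08). In effector cells 4 did, and the ratios of *Bad* (0.44), *Bcl2l13* (0.34) and *Bid* (-0.32) all had intervals that included 0. In Foxp3-positive cells 3 of 14 survival genes were higher and 6 lower (19.0% and 14.4% of all genes), and in other Cd8 cells 1 of 14 was in each direction (2.45% and 2.55%).

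Over the 10 sums of gate and genotype, the genes whose log2(CPM + 1) followed a member most closely were sought among 6344 genes, as a description. For *Bcl2* these were *Mlxip* (Pearson r = 0.87), *2810013P06Rik* (0.85) and *Mecr* (0.82). For *Bcl2l11* they were *Pik3ap1* (0.90), *Tmed5* (0.89) and *Ndufb5* (0.89), and for *Bcl2a1b* *Ehmt2* (0.98), *Ctsb* (0.97) and *Bcl2a1d* (0.97). All 10 sums come from 1 sample as the labels give it, the 5 sums of 1 mouse share their depth, and each set was the highest of many genes compared.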

How the data were processed

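TCRβ+ cells of 1 *Foxp3Cre* WT and 1 DKO-severe mouse were sequenced with the 10x Genomics 3′ v3.1 chemistry; per the file headers and the study's methods the authors made the deposited UMI counts with Cell Ranger 7.1.0 and mm10, and the files hold raw counts per gene and barcode, hashtag counts, and the gene and barcode names. Genotype was taken from the matrix and its hashtag (Hashtag 1 WT, Hashtag 2 DKO-severe). Barcodes with 500 or more genes, at most 10% mitochondrial UMIs and their own hashtag higher were kept (3 WT barcodes had the other hashtag higher). Scrublet (scanpy 1.11.5) automatically marked only 4 and 3 doublets, so the cells with the top 6% of scores of each matrix were taken out, a rule chosen with that outcome known from an earlier analysis. The gates, the members and all lists were chosen with earlier results of these data known. Gate sums were divided by their total (CPM); fewer than 3 UMIs counted as 3 in a ratio. Ratio intervals are exact conditional binomial, levels Poisson and shares Clopper-Pearson, computed with scipy 1.17.1. The ratio calculation was tested on Poisson counts simulated with known folds. Such counts hold no variation between cells, so they check the calculation and not the coverage in these data. Genes at a mean of 20 CPM or more form the background. All 10 members are named in every gate; from each pathway list the 3 genes with the largest absolute ratio are named in Foxp3-negative and effector cells, and for likeness the 3 with the highest r. Free RNA was not removed. Alternatives were another doublet removal, thinning, equal weight per cell, other gene totals, centring, a pseudocount of 5 CPM, other gates, a mitochondrial limit of 5%, leaving out cells with other-cell or cell cycle markers, and a 2-fold threshold. Cells were also divided by a *Pdcd1* or *Il21* UMI (Foxp3-negative, Foxp3-positive and other Cd8) and by an *Il2rb* UMI (innate-like), with the splits of whole gates, the gating of cells before thinning and the sum of both A1 genes chosen after seeing the data. Some genes of the lists, the counts that rest on them and a further division of the gates are not reported here.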

Additional observations from a re-analysis of the deposited data

Results flagged for a closer look

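With 1 mouse of each genotype none of the following differences between gates was tested, and each was singled out because the ratio of DKO-severe over WT had opposite signs in 2 gates with counting intervals that excluded 0. The log2 ratio of *Bcl2* was 2.05 in innate-like and -1.53 in Foxp3-positive cells. Markers of granulocytes were at 6307 and 3818 CPM in those DKO-severe gates, against 82.9 and 76.2 CPM in WT, and without cells holding 2 or more UMIs of other-cell markers the 2 ratios were 2.32 and -1.58. The ratio of *Mcl1* was 0.23 in other Cd8 and -0.27 in Foxp3-positive cells. That of *Bcl2l11* was 0.84 in Foxp3-positive cells, from 15 WT UMIs, and -0.78 in effector cells, from 21 WT UMIs. That of *Bax* was 1.25 in Foxp3-positive and -0.16 in other Cd8 cells.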

How the results depend on the processing

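No paired analysis was possible because each genotype had 1 mouse, and for the same reason no mouse could be left out. Over the alternatives the *Bcl2* ratio ranged from -0.20 to 0.21 in Foxp3-negative, from -2.01 to -0.62 in Foxp3-positive, from 0.87 to 1.62 in effector, from 0.95 to 1.05 in other Cd8 and from 1.73 to 2.39 in innate-like cells, and the *Bcl2a1b* ratio of Foxp3-negative cells from 1.84 to 2.22. The *Bcl2l11* ratio of effector cells ranged from -0.85 to -0.31. In Foxp3-negative cells 3 members were 2-fold or more higher, the median of the members was 1.03 after thinning, and the *Mcl1* ratio was -0.08 without immunoglobulin, haemoglobin, mitochondrial and ribosomal protein genes and -0.02 when centred. In Foxp3-positive cells thinning, which left 24 WT cells, gave a median of 0.00 and ratios of 0.00 for *Bbc3* and -0.29 for *Pmaip1*. In effector cells, with 30 WT cells, the number of members 1.5-fold or more higher was 2 without doublet removal, with the top 12% of doublet scores removed, after thinning and without the 4 gene classes named above, and 3 with equal weight per cell and without cells holding *Mki67* or *Top2a*. The number lower there was 0 without doublet removal, with equal weight per cell and at 2-fold, and 3 after thinning and with stricter gates. Those 2 settings moved the median of all genes of the gate from -0.01 to -0.28. Leaving out the 4 gene classes took the median of the members in other Cd8 cells to 0.36 and the median of all genes in Foxp3-negative cells from 0.10 to -0.05. In innate-like cells 2 members were higher without cells holding other-cell markers, without cells holding *Mki67* or *Top2a*, with stricter gates and with any number of *Cd4* UMIs. The cause of these shifts was not tested. Another random draw of the thinning moved 3 of 50 shares beyond their intervals. Depth limits the WT effector, innate-like and Foxp3-positive gates most, with 216174, 409999 and 459046 UMIs in all and as few as 1, 2 and 6 UMIs of a member.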

Other observations

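Among the survival signals in gates not described above, *Il2rb* was at 85.7 CPM in the WT and 231 CPM in the DKO-severe other Cd8 cells (log2 ratio 1.43, 1.35 to 1.52), and in Foxp3-positive cells it was at 253 and 235 CPM (-0.10, -0.38 to 0.19). *Il2ra*, the α chain of the IL-2 receptor, was at 490.1 and 163 CPM in Foxp3-positive cells. *Foxo1* was lower in DKO-severe in Foxp3-positive (-0.75, -1.01 to -0.49) and in other Cd8 cells (-0.60, -0.67 to -0.53), and its interval included 0 in innate-like cells (-0.38, -0.84 to 0.09). The kinase gene *Pim1* was at 296 and 169.5 CPM in Foxp3-positive cells (-0.81, -1.07 to -0.53) and at 107 and 183 CPM in innate-like cells (0.77, 0.28 to 1.29). In innate-like cells 3 of 6 genes of death receptors, their ligands and adaptors were 1.5-fold or more higher (11.5% of 6393 genes). None of the 3 encodes a receptor. *Fasl* was at 56.1 and 97.3 CPM (0.79, 0.11 to 1.53) and *Ripk1* at 19.5 and 58.6 CPM (1.59, 0.50 to 2.88). The ratio of *Tnfsf10* was 0.60 (-0.15 to 1.40), with an interval that included 0. The receptor gene *Tnfrsf1a* had a ratio of -0.06 (-1.07 to 1.03). These genes and gates were picked after their values had been seen.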
